A study of Mus musculus with 14 samples.

Results

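The genes described here are solute carrier genes that mouse CD4+ T cells expressed in these libraries, other than the glucose carriers and several amino acid carrier families. Members were chosen by name and by level: a gene name that begins with Slc and a number, and a mean of at least 5 counts per 1e+06 counts (CPM) over all 14 libraries. Names that begin with Slc1a, Slc2a, Slc3a or Slc7a and the genes Slc16a1, Slc16a3, Slc30a1 and Slc38a2 were left out. The rule gave 145 genes, of 369 Slc genes in a table of 22048 genes. The members nearest the limit were Slc46a3 at 5.55 CPM and Slc6a9 at 5.87 CPM, and the nearest genes outside were Slc41a3 at 4.8 CPM and Slc35d3 at 4.2 CPM. The mean level chose the members, so their levels are a description. All 145 passed the filter on low counts. In 122 of them every group mean was at least 5 CPM, and of the other 23, 3 would have missed the limit without the naive group. These were Slc46a3, Slc25a35 and Slc16a5, named for this reason after their values were seen, and Slc16a5 averaged 0.314 CPM over the other libraries.

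RNA came from CD4+ T cells of C57BL/6 mice that carry a YFP reporter for interferon-gamma (IFN-g), the signature cytokine of Th1 helper cells. The 3 naive libraries hold CD4+ CD44- CD62L+ cells taken straight from spleen and peripheral lymph nodes by sorting. All other cells were enriched for CD4 without a naive sort and kept for 4 days with anti-CD3 plus anti-CD28 bound to the plate (each at 1 µg/ml), 10 ng/ml each of IL-12 and IL-2, and anti-IL4 (10 µg/ml), a mix that drives the Th1 fate. Each culture also held 1 µM of SGC0946, which blocks DOT1L (a histone methylating enzyme), or 1 µM of SGC0649, its inactive control compound. Sorting by the reporter then gave YFPneg SGC0649 (n = 2, numbers 61 and 62), YFPpos SGC0649 (n = 3, numbers 61 to 63), YFPneg SGC0946 (n = 3, numbers 91 to 93) and YFPpos SGC0946 cells (n = 3, numbers 91 to 93). A YFPneg SGC0649 library of number 63 was not analysed here. Naive and cultured cells differ in the starting population, the stimulation, the time in culture and the presence of a compound, and these cannot be told apart. In bulk RNA, fewer cells of a type and less RNA per cell cannot be told apart either. The sources used here give no age for the mice.

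Solute carriers move ions, nutrients, metals, nucleotides and metabolites across the plasma membrane or the membranes of mitochondria, the endoplasmic reticulum (ER), the Golgi and lysosomes, mostly by exchange or by cotransport with an ion. T cells that leave the resting state take up more nutrients and expand their mitochondria before they divide. The lists that follow rest on gene names alone, and the place and function of each protein were not checked. The members were grouped by family into mitochondrial carriers (35 genes), ER and Golgi carriers (26), ion and pH transporters (23), metal and heme transporters (21), amino acid, peptide and lysosomal anion transporters (16), nucleoside, vitamin and choline transporters (12), and a remainder with monocarboxylate, fatty acid, urea and organic ion carriers (12).

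Promoter sequence was at hand for 108 of the 145 members, as 147 windows from 250 bases before to 50 bases after a start (RefSeq, GRCm38.p6). The E-box CACGTG, a palindrome read by basic helix-loop-helix factors such as MYC and TFEB, was searched because MYC and TFEB govern growth and lysosomal genes. It stood in 23 of the 147 windows (15.6%), in 10.5% of windows of tested genes with a mean of at least 5 CPM and in 7.15% of all promoters of the table. Members higher in YFPpos SGC0649 than in naive cells held it in 9 of 63 windows (14.3%) and members lower there in 12 of 65 (18.5%). To show that members of either direction hold these letters, the 250 bases before 1 RefSeq start that holds them are printed for Slc12a7 (chr13:73763447-73763696, plus strand) and Slc36a1 (chr11:55204090-55204339, plus strand), which were lower in cultured than in naive cells, and for Slc25a13 (chr6:6217174-6217423, minus strand) and Slc39a8 (chr3:135825407-135825656, plus strand), which were higher. They are written 5′ to 3′ on the strand of the gene, and capitals mark CACGTG.
Slc12a7: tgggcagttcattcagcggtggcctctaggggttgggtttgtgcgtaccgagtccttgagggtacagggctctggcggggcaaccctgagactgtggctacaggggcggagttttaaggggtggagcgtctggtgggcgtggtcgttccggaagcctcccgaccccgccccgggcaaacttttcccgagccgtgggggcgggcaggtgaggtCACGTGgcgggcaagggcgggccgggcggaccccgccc
Slc36a1: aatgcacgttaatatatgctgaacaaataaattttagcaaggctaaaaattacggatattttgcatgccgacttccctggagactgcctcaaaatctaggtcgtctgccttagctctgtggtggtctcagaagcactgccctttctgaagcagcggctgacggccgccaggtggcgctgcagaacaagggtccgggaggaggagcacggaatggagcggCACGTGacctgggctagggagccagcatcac
Slc25a13: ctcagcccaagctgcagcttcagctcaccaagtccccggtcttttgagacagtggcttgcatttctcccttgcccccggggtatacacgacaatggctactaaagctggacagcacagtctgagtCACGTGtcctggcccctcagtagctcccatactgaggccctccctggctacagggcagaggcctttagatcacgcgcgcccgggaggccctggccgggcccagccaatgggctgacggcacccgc
Slc39a8: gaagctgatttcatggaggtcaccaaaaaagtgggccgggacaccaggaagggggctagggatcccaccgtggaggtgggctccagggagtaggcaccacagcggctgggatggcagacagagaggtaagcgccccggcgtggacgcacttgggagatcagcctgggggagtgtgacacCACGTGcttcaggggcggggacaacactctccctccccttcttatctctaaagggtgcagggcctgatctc
The letters began 38 bases before the start in Slc12a7, 31 in Slc36a1, 125 in Slc25a13 and 71 in Slc39a8. The metal response letters TGCACNC or TGCGCNC, read by the zinc sensor MTF1, were searched on both strands and can overlap each other. They stood in 9 of 19 windows of the metal and heme list (47.4%), in 36.7% of all member windows and in 36.3% of windows of tested genes with a mean of at least 5 CPM. Matches describe letters, and binding was not measured. Slc39a8 has 2 windows, and the other one, at the start of its GENCODE gene model (135825279), does not hold CACGTG, so the printed window lies inside the gene. Both Slc12a7 windows hold it, and both lie inside a gene model that starts at 73733094.

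Total counts ran from 14486577 to 31614057 per library, of which the members took 0.774% to 0.872% as group means. The 5 T cell markers found in the table summed to 1860 to 3750 CPM in every library. B cell markers summed to 0.0697 to 2.61 CPM, myeloid markers to 0.822 to 12 CPM, erythroid markers to at most 1.53 CPM and CD8 markers to 4.76 to 19.7 CPM, with the highest CD8 values in naive and YFPneg SGC0946 libraries. The NK cell list summed to 4.67 to 6.83 CPM in naive and 129 to 159 CPM in YFPneg SGC0649 cells. Its sums were 79.7 to 167 in YFPpos SGC0649, 69.2 to 121 in YFPneg SGC0946 and 25.6 to 32.2 CPM in YFPpos SGC0946 cells. These were mostly Eomes, while Ncr1, Klra8 and Klrb1c were at or near 0. Klre1 averaged 0.292 CPM in naive, 0.587 in YFPneg SGC0649, 2.52 in YFPpos SGC0649, 1.91 in YFPneg SGC0946 and 6.89 in YFPpos SGC0946 cells. In YFPpos cells Eomes averaged 117 CPM with SGC0649 and 21.3 CPM with SGC0946. Summed naive T cell markers lay between 4080 and 4330 CPM in naive libraries, between 2810 and 3520 in the YFPneg and between 1570 and 1950 in the YFPpos sorts. For the Th1 markers Ifng and Tbx21 these ranges were 0.36 to 0.748, 283 to 391 and 864 to 1190 CPM. Cells were sorted by a reporter for Ifng, so the step between sorts in this sum was largely fixed by the sort. Ifng averaged 33.8 (SGC0649) and 66.8 CPM (SGC0946) in YFPneg cells and 737 and 645 CPM in YFPpos cells. Tbx21 averaged 265 and 274 CPM against 280 and 322 CPM. The part of these differences in the results below was not tested.

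Compared per exon length, carriers of the inner mitochondrial membrane were among the most abundant. Over the 14 libraries Slc25a5 (ANT2, an ADP/ATP exchanger) averaged 256 RPKM (CPM per kilobase of exon), the phosphate carrier gene Slc25a3 93.9 RPKM and Slc25a4 (ANT1, its ADP/ATP exchanger paralog) 86.2 RPKM. Slc9a3r1, at 114 RPKM, bears a solute carrier name but encodes the scaffold protein NHERF1. Other abundant members were the choline transporter-like gene Slc44a2 (53.1 RPKM), the sugar transporter gene Slc50a1 (46.1), the phosphate importer gene Slc20a1 (43) and the zinc importer gene Slc39a1 (36.1). The level of Slc25a5 is uncertain, since 33.8% of the 50-base words of its transcripts also occur in other genes, mainly pseudogenes. By group mean, 67 members were highest in naive cells, 38 in YFPpos SGC0649, 27 in YFPpos SGC0946, 7 in YFPneg SGC0649 and 6 in YFPneg SGC0946 cells.

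**Figure D1:**
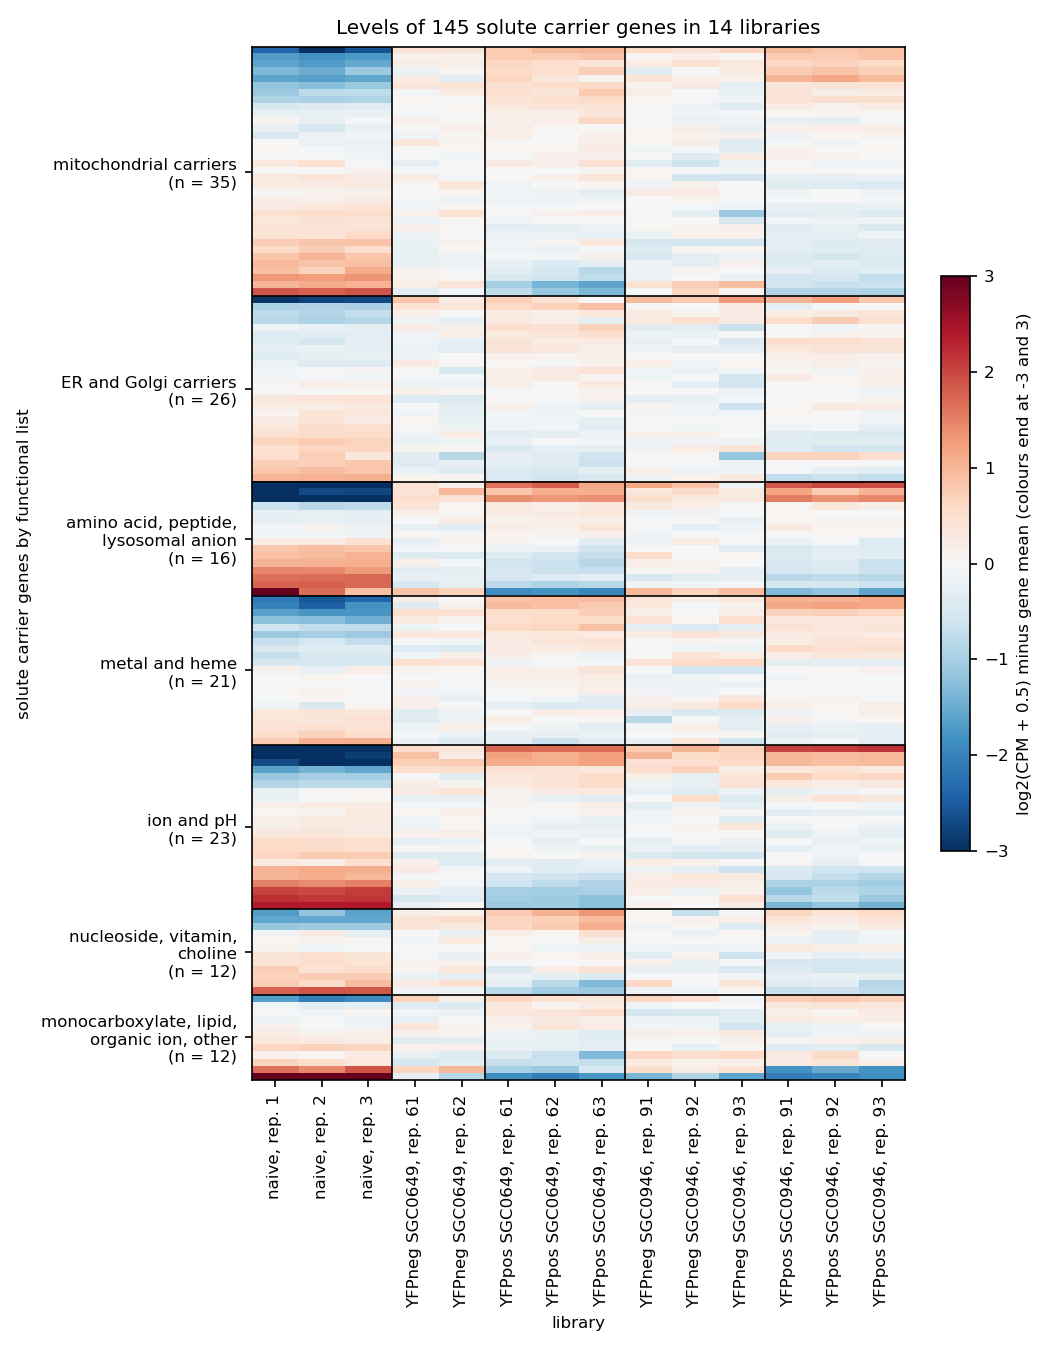
Levels of the 145 solute carrier genes (rows, by functional list) in the 14 libraries (columns, by group), as log2(CPM + 0.5) minus the mean of each gene, with colours ending at -3 and 3. The 3 naive libraries carry the deepest red and blue, in every list, and the YFPneg columns are paler than the YFPpos columns.

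The first comparison asked how these genes differ between naive cells and cells polarized with the inactive compound. In YFPpos SGC0649 against naive cells 58 of the 145 members were higher and 63 lower. Of all 12343 genes tested, 79.8% were called by edgeR's quasi-likelihood test at an adjusted p under 0.05, 42.6% higher and 37.3% lower, and of those with a mean of at least 5 CPM 83.7% were called. The members' share, 83.4%, was near the latter. Their median log2 fold change was -0.08, against 0.09 over all genes, and 31 rose and 29 fell by at least 2-fold. In YFPneg SGC0649 against naive cells 46 members were higher and 60 lower, with a median of -0.14 against 0.03. The background there was 69% called, 36.4% higher and 32.6% lower, and 74.5% among genes with a mean of at least 5 CPM. Both comparisons use the same naive libraries, so their values stand side by side. Counts and medians against naive, here and by list, include Slc46a3, Slc25a35 and Slc16a5. These met the limit only through the naive group, where they were highest, so their direction was partly fixed by the choice of members. Unmapped reads were 7.4% to 8.66% and assigned reads 57.2% to 57.9% in naive libraries, against 3.44% to 4.41% and 65% to 65.1% in YFPneg SGC0649 and 6.44% to 8.35% and 58.7% to 60.8% in YFPpos SGC0649 libraries, and the part of this in the results was not tested.

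Mitochondrial carriers split, with 14 of 35 higher and 16 lower in YFPpos SGC0649 than in naive cells (median -0.01), and 12 higher and 13 lower in YFPneg SGC0649. Slc25a4 stood at 52.7, 47.8 and 51.2 CPM in naive libraries, 182 and 185 in YFPneg SGC0649, 286, 285 and 300 in YFPpos SGC0649, 175, 188 and 177 in YFPneg SGC0946 and 285, 288 and 308 CPM in YFPpos SGC0946. The naive libraries were lowest, the YFPneg libraries intermediate and the YFPpos libraries highest, without overlap. Its log2 fold change from naive was 2.52 (SE 0.06, adjusted p = 1.9e-16) in YFPpos and 1.86 (SE 0.06, adjusted p = 5.0e-14) in YFPneg SGC0649 cells. Slc25a5 rose from 207 ± 6.12 CPM (SD, n = 3, as for the naive and YFPpos values that follow) to 554 ± 35.7 CPM in YFPpos SGC0649 cells (1.42, SE 0.06, adjusted p = 4.0e-13).

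Other named mitochondrial carriers went either way. Slc25a13 encodes citrin, the aspartate/glutamate carrier of the malate-aspartate shuttle, and went from 1.54 ± 0.4 CPM in naive to 23.2 ± 1.9 CPM in YFPpos SGC0649 cells (3.9, SE 0.16, adjusted p = 2.5e-13). The citrate carrier gene Slc25a1, which supplies carbon for lipid synthesis, went from 14 ± 0.879 to 62.4 ± 5.3 CPM (2.16, SE 0.09, adjusted p = 3.5e-13), and the dicarboxylate carrier gene Slc25a10 from 6.17 ± 0.906 to 24.7 ± 2.02 CPM (2, SE 0.16, adjusted p = 2.0e-09). Among the ATP-Mg/phosphate carriers, which set the adenine nucleotide pool of mitochondria, Slc25a24 rose from 14 ± 0.384 to 55.7 ± 11.5 CPM (1.99, SE 0.15, adjusted p = 1.6e-09), whereas Slc25a23 fell from 67.2 ± 3.18 to 12.6 ± 2.83 CPM (-2.42, SE 0.14, adjusted p = 4.5e-11). Slc25a27, known as uncoupling protein UCP4, fell from 29.9 ± 1.03 to 3.51 ± 0.87 CPM (-3.09, SE 0.19, adjusted p = 1.1e-10). The iron importer gene Slc25a37 (mitoferrin 1) fell from 117 ± 8.01 to 63 ± 4.86 CPM (-0.9, SE 0.08, adjusted p = 2.6e-08).

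In the ion and pH list 7 of 23 members were higher and 13 lower than in naive cells, in YFPpos as in YFPneg SGC0649 cells (medians -0.44 and -0.27). Slc12a7 encodes KCC4, a potassium-chloride cotransporter by which swollen cells shed salt and water. It stood at 495, 495 and 498 CPM in naive libraries, 79.8 and 96.2 in YFPneg SGC0649, 43, 44.5 and 38.6 in YFPpos SGC0649, 102, 93.5 and 107 in YFPneg SGC0946 and 35.5, 41.3 and 34.3 CPM in YFPpos SGC0946. The naive libraries were far above the rest, and YFPneg lay above YFPpos libraries without overlap. It was 11.8-fold lower in YFPpos SGC0649 than in naive cells (log2 fold change -3.56, SE 0.09, adjusted p = 3.8e-16) and changed by -2.5 in YFPneg SGC0649 cells (SE 0.1, adjusted p = 3.7e-13). The anion transporter gene Slc26a11 fell from 45.5 ± 1.51 to 4.28 ± 0.305 CPM (-3.41, SE 0.15, adjusted p = 1.1e-12).

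Sodium/proton exchangers, which set the pH of cytosol and organelles, moved both ways. Slc9a9 (NHE9, of endosomes) fell from 47.8 ± 2.07 to 5.38 ± 0.0725 CPM (-3.15, SE 0.13, adjusted p = 2.9e-13). In contrast Slc9a5 (NHE5) rose from 1.4 ± 0.506 to 34 ± 1.63 CPM (4.6, SE 0.16, adjusted p = 2.9e-14) and Slc9b2 (NHA2) from 0.685 ± 0.324 to 24.4 ± 1.31 CPM (5.12, SE 0.25, adjusted p = 3.9e-12). Slc4a11, of the bicarbonate transporter family and best known from the corneal endothelium, rose further. It stood at 0.24, 0.187 and 0.227 CPM in naive libraries, 30.7 and 27.7 in YFPneg SGC0649, 71.2, 69.3 and 68.4 in YFPpos SGC0649, 36.8, 43.2 and 34.7 in YFPneg SGC0946 and 87.6, 91.7 and 96.2 CPM in YFPpos SGC0946. No group overlapped another. Its level in YFPpos SGC0649 cells was 310-fold that in naive cells (8.28, SE 0.16, adjusted p = 2.2e-17), on a naive level of under 1 CPM.

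All 16 amino acid, peptide and lysosomal anion transporters were called in YFPpos SGC0649 against naive cells, 8 higher and 8 lower (median -0.11), and 6 higher and 9 lower in YFPneg SGC0649. Slc17a6 encodes VGLUT2, which loads glutamate into synaptic vesicles. It had no count in any naive library and stood at 12.9 and 10.3 CPM in YFPneg SGC0649, 29.8, 33.6 and 20.9 in YFPpos SGC0649, 21.3, 17.2 and 8.51 in YFPneg SGC0946 and 35.3, 38.9 and 37.3 CPM in YFPpos SGC0946. The 2 YFPneg groups overlapped, and with each compound all YFPpos libraries lay above all YFPneg libraries. Against a floor of 3 counts over the naive group it was at least 468.8-fold higher in YFPpos and at least 195.2-fold higher in YFPneg SGC0649 cells (adjusted p = 3.1e-10 and 2.2e-08 by edgeR), and with that bound the median of the list was the same. The glycine transporter gene Slc6a9 rose from 0.119 ± 0.103 to 8.47 ± 0.87 CPM (6.08, SE 0.41, adjusted p = 2.5e-10). Slc43a3, which carries purine nucleobases, stood at 2.88, 2.55 and 3.01 CPM in naive, 52.6 and 49.3 in YFPneg SGC0649 and 97.1, 91.4 and 95 CPM in YFPpos SGC0649 libraries, a 33.5-fold rise in the latter (5.06, SE 0.11, adjusted p = 4.6e-17).

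The named members of the list that fell have varied roles. Slc36a1 (a lysosomal proton-coupled amino acid transporter) went from 105 ± 3.12 to 16.8 ± 0.898 CPM in YFPpos SGC0649 cells (-2.65, SE 0.08, adjusted p = 1.1e-14). Slc38a9, the lysosomal arginine sensor upstream of mTORC1, went from 67 ± 1.94 to 19.8 ± 1.76 CPM (-1.76, SE 0.1, adjusted p = 2.8e-11), and the vesicular ATP carrier gene Slc17a9 from 157 ± 3.98 to 37 ± 2.98 CPM (-2.08, SE 0.07, adjusted p = 4.2e-14). The peptide transporter gene Slc15a2 (PEPT2) varied among naive libraries, at 170, 67.4 and 38.2 CPM, against 37.7 and 33.5 in YFPneg and 5.34, 5.59 and 4.98 CPM in YFPpos SGC0649 libraries. The YFPpos libraries were well below all others (17.3-fold below the naive mean, log2 fold change -4.12, SE 0.4, adjusted p = 3.6e-08), whereas the lowest naive library was close to the YFPneg libraries.

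Metal and heme transporters had 10 of 21 members higher and 3 lower in YFPpos SGC0649 than in naive cells (median 0.2), and 9 higher and 5 lower in YFPneg SGC0649 (median 0.02). Those named by the rule that rose were mainly zinc importers of the ZIP family, but not all of that family rose. Of its other members, named after their values were seen, Slc39a10 was higher and Slc39a3 lower in YFPpos SGC0649 than in naive cells. Slc39a7, Slc39a9, Slc39a11 and Slc39a13 were not called there. Slc39a8 (ZIP8) stood at 5.87, 4.24 and 4.93 CPM in naive libraries, 32 and 28.1 in YFPneg SGC0649, 51, 52.1 and 54.1 in YFPpos SGC0649, 37.1, 32.6 and 34.8 in YFPneg SGC0946 and 57.9, 57.2 and 62.3 CPM in YFPpos SGC0946. Naive, YFPneg and YFPpos libraries formed 3 separate levels, and the YFPpos SGC0649 level was 10.4-fold the naive level (3.38, SE 0.11, adjusted p = 1.5e-14). Slc39a4 (ZIP4) rose from 2.48 ± 0.633 to 22.7 ± 1.27 CPM (3.18, SE 0.18, adjusted p = 2.8e-11), Slc39a6 (ZIP6) from 38.6 ± 2.56 to 103 ± 11.3 CPM (1.42, SE 0.09, adjusted p = 6.0e-11) and Slc39a14 (ZIP14) from 41.8 ± 2.07 to 65.7 ± 2.78 CPM (0.65, SE 0.07, adjusted p = 3.5e-07). Slc39a1 (ZIP1) went from 37.8 ± 1.49 CPM to between 94 and 106 CPM in every cultured library, with 21.8% of its 50-base words shared, mainly with a pseudogene. Slc30a4 (ZnT4), which moves zinc from the cytosol into vesicles, rose 5.04-fold (2.33, SE 0.08, adjusted p = 1.1e-14). The magnesium transporter gene Slc41a1 was at 57.8 ± 1.14 CPM in naive, 111 ± 2.28 (n = 2) in YFPneg and 77.4 ± 1.71 CPM in YFPpos SGC0649 cells (0.94 and 0.42 from naive, adjusted p = 1.1e-09 and 6.1e-06 by edgeR).

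Of the 12 nucleoside, vitamin and choline transporters, 3 were higher and 5 lower in YFPpos SGC0649 than in naive cells, and 3 higher and 4 lower in YFPneg SGC0649. The 2 nucleoside carriers named by the rule moved in opposite directions, and Slc29a3, a nucleoside carrier of lysosomes named after its values were seen, was not called in YFPpos SGC0649 cells (-0.26, 95% interval -0.53 to 0.01). Slc28a2 (CNT2, sodium-driven) stood at 275, 299 and 293 CPM in naive, 74.4 and 72.2 in YFPneg SGC0649 and 46, 39.3 and 37.4 CPM in YFPpos SGC0649 libraries, the last 7.06-fold lower (-2.82, SE 0.08, adjusted p = 2.4e-15). The equilibrative carrier gene Slc29a1 (ENT1) stood at 33.4, 33.3 and 33.2 CPM in naive, 131 and 143 in YFPneg SGC0649 and 154, 163 and 192 CPM in YFPpos SGC0649 libraries, the last 5.09-fold higher (2.35, SE 0.08, adjusted p = 3.2e-14). Naive and cultured libraries overlapped for neither gene, but 35.4% of the 50-base words of Slc28a2 are shared, mainly with Gm14085. The folate carrier gene Slc19a1 rose from 23 ± 0.705 to 90 ± 15.8 CPM (1.97, SE 0.12, adjusted p = 7.8e-11) and the thiamine transporter gene Slc19a2 from 8.3 ± 1.68 to 50.3 ± 9.48 CPM (2.6, SE 0.19, adjusted p = 7.2e-10). The vitamin C transporter gene Slc23a2 fell from 85.7 ± 4.08 to 62.4 ± 1.5 CPM (-0.46, SE 0.08, adjusted p = 5.0e-05), and Slc44a2 from 744 ± 19.2 to 364 ± 30.1 CPM (-1.03, SE 0.06, adjusted p = 3.4e-11).

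Among ER and Golgi carriers 12 of 26 were higher and 11 lower in YFPpos SGC0649 than in naive cells (median 0.03), and 8 higher and 11 lower in YFPneg SGC0649 (median -0.26). Slc35f5 rose from 0.178 ± 0.054 to 5.86 ± 1.44 CPM (4.99, SE 0.38, adjusted p = 1.7e-09) and Slc35f2 from 9.12 ± 0.162 to 30.3 ± 3.17 CPM (1.73, SE 0.12, adjusted p = 3.7e-10). Slc35b1 exchanges ATP for ADP across the ER membrane and was higher by 0.56 in YFPpos SGC0649 cells (SE 0.08, adjusted p = 3.0e-06). Slc35b3, which brings the sulfate donor PAPS into the Golgi, fell from 86.8 ± 1.54 to 29.9 ± 1.15 CPM (-1.54, SE 0.09, adjusted p = 3.6e-11), and the GDP-fucose transporter gene Slc35c1 from 109 ± 5.45 to 62.1 ± 4.64 CPM (-0.81, SE 0.07, adjusted p = 4.8e-09).

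In the remainder 4 of 12 members were higher and 7 lower in YFPpos SGC0649 than in naive cells, and 1 higher and 5 lower in YFPneg SGC0649. Slc16a5 (MCT6, of the monocarboxylate transporter family) stood at 102, 93.3 and 92.2 CPM in naive, 1.27 and 0.668 in YFPneg SGC0649, 0.0868, 0 and 0.13 in YFPpos SGC0649, 0.321, 0.624 and 0.209 in YFPneg SGC0946 and 0, 0.0397 and 0.0921 CPM in YFPpos SGC0946 libraries. Slc16a5 is a member through its naive level alone, so its higher level in naive cells was partly fixed by the choice of members and is given as a description. The urea transporter gene Slc14a1 fell from 30.1 ± 4.61 to 4.83 ± 1.26 CPM in YFPpos SGC0649 cells (-2.64, SE 0.19, adjusted p = 5.2e-10). The aromatic amino acid carrier gene Slc16a10 fell from 21.9 ± 2.65 to 9.36 ± 0.286 CPM (-1.22, SE 0.12, adjusted p = 3.7e-08), while Slc22a15 of the organic ion family rose from 2.34 ± 0.413 to 13.9 ± 1.43 CPM (2.57, SE 0.22, adjusted p = 7.2e-09).

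**Figure D2:**
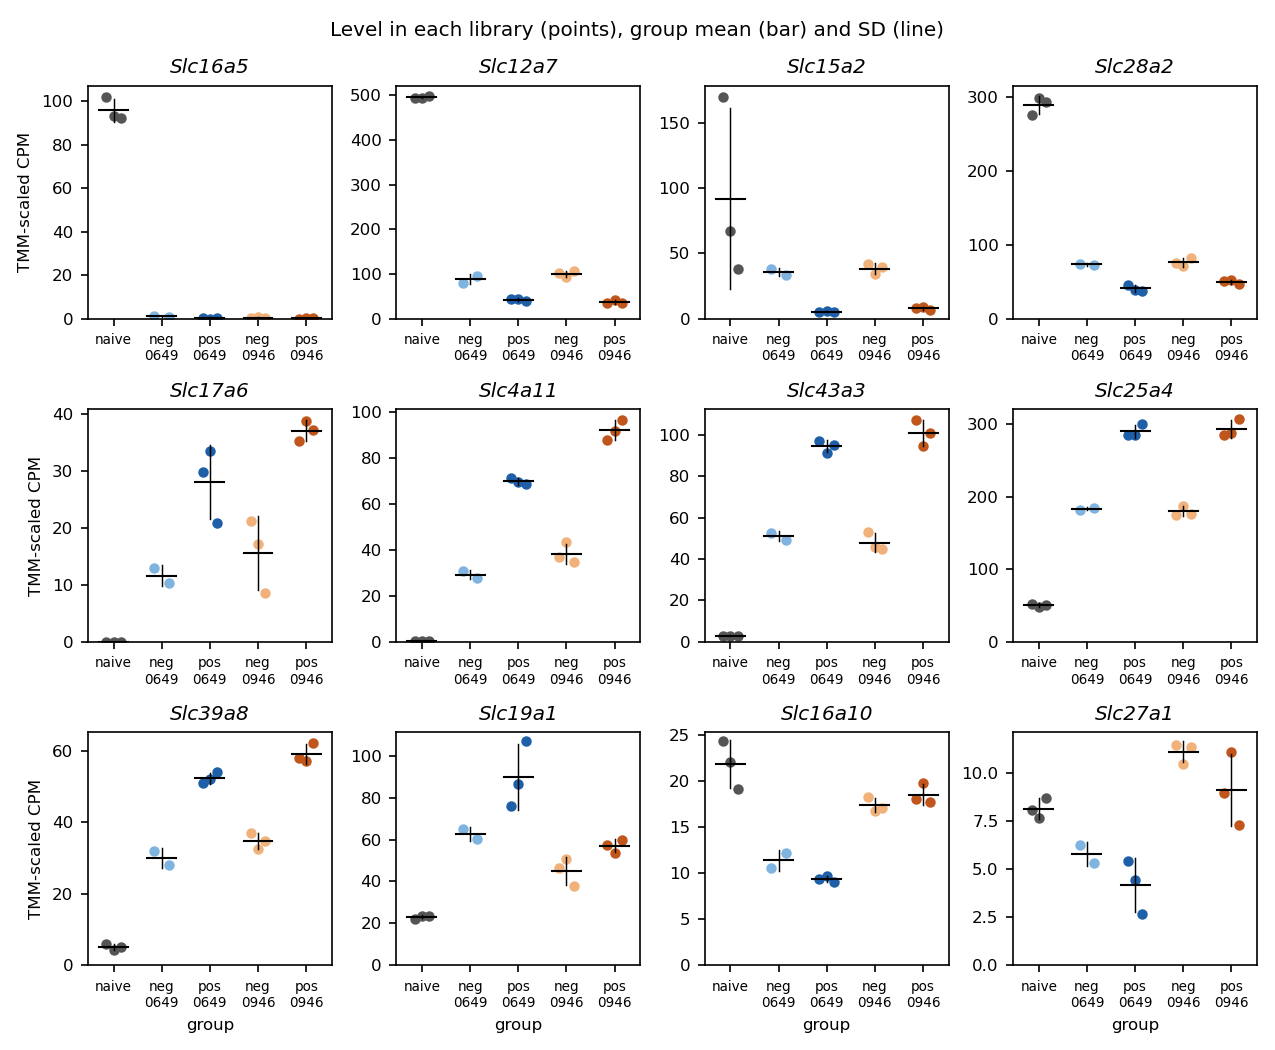
Levels of 12 members in each library as TMM-scaled CPM (y axis from 0, own scale in each panel) by group (x axis, named by reporter sort and compound), with points for libraries, a bar for the mean and a line for the SD. Slc12a7 and Slc28a2 are highest in naive cells, Slc4a11, Slc43a3, Slc25a4 and Slc39a8 step up from naive to YFPneg to YFPpos, and Slc16a10 and Slc27a1 lie higher with SGC0946 than with SGC0649 in both sorts.

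The second comparison set reporter-positive against reporter-negative cells of like cultures. With SGC0649, 41 members were higher and 26 lower in YFPpos cells (67 called). The background was 45.2% called, 23.9% higher and 21.3% lower, and 51.8% among genes with a mean of at least 5 CPM. With SGC0946, 45 were higher and 36 lower (81 called). The background there was 54.7% called, 26.9% higher and 27.8% lower, and 60.4% among genes with a mean of at least 5 CPM. The members' shares, 46.2% and 55.9%, were near these. Their medians were 0.03 and 0.05, against 0.04 and 0.01 over all genes. These 2 contrasts share no library. In both, 57 members were called, 33 higher and 24 lower, and all 57 in the same direction, which is 85.1% of those called with SGC0649 and 70.4% of those called with SGC0946. Over all genes these shares were 83.6% and 69.2%. Across the 145 members Pearson's r between the 2 sets of log2 fold changes was 0.93, and across all genes 0.71, as a description over genes measured in the same libraries. All genes here include those with a mean under 5 CPM. The shares and r were not computed for genes at the members' limit, so members and all genes are not compared at like levels. An F test over the 4 cultured groups called 106 members (73.1%) and 69.3% of all genes, with small p-values for Slc12a7, Slc4a11 and Slc43a3, among others.

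Unmapped reads moved with the sort: YFPneg libraries had 3.14% to 4.62% and YFPpos libraries 6.44% to 8.35%, except YFPpos SGC0946 number 92 at 3.61%. Multimapping reads were 21.5% to 22.2% in YFPneg and 24% to 25.7% in all YFPpos libraries. Without YFPpos SGC0946 number 92, 74 members were called with SGC0946 in place of 81. The part of these shares in the differences between sorts was not tested.

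**Figure D3:**
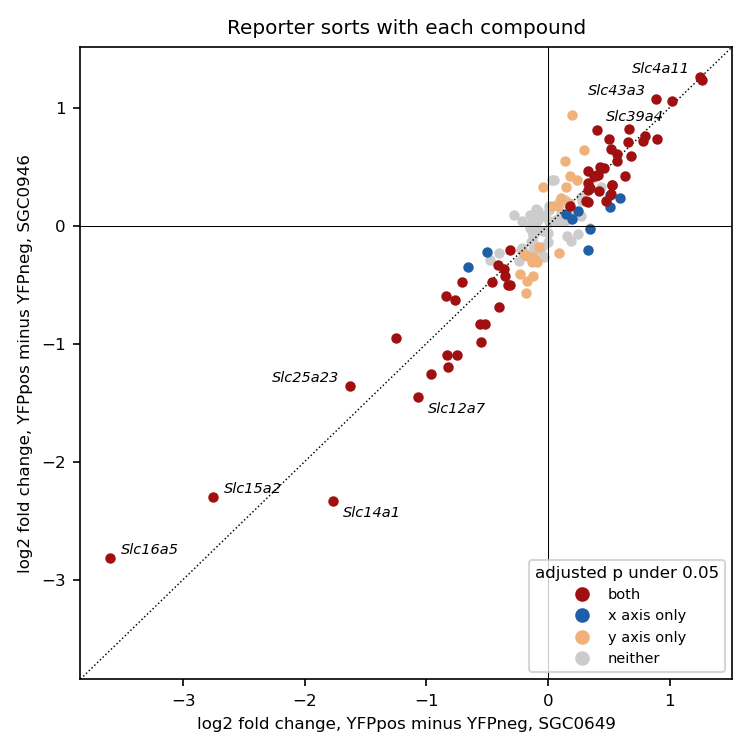
Log2 fold change of YFPpos over YFPneg cells with SGC0649 (x axis) and with SGC0946 (y axis), 1 point for each of the 145 members, coloured by which contrast passed an adjusted p of 0.05; the dotted line marks equal values. The 57 members called in both lie in the lower left and upper right corners, from Slc16a5 and Slc15a2 to Slc4a11.

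Differences of at least 2-fold were called in 6 lower and 3 higher members with SGC0649, and in 9 lower and 4 higher members with SGC0946. Slc15a2 differed 6.71-fold between the SGC0649 sorts and was the lower in YFPpos cells (-2.75, SE 0.42, adjusted p = 5.4e-05). With SGC0946 it stood at 41.5, 34 and 39.5 CPM in YFPneg and 8, 8.9 and 6.54 CPM in YFPpos libraries (-2.3, SE 0.37, adjusted p = 6.0e-05). The urea transporter gene Slc14a1 stood at 14.6 and 18.5 CPM in YFPneg and 4.3, 3.92 and 6.27 CPM in YFPpos SGC0649 libraries, and at 13.5, 10.7 and 12.6 against 2.22, 2.86 and 2.24 CPM with SGC0946. The sorts did not overlap with either compound, and the log2 fold changes were -1.77 (SE 0.2, adjusted p = 2.4e-06) and -2.33 (SE 0.2, adjusted p = 5.0e-08). Slc25a23 changed by -1.63 (SE 0.15, adjusted p = 3.1e-07) with SGC0649 and -1.36 (SE 0.14, adjusted p = 3.1e-07) with SGC0946.

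The potassium-chloride cotransporter gene Slc12a7 was lower in YFPpos cells with both compounds, by 2.09-fold and 2.73-fold (-1.07 and -1.45, adjusted p = 1.1e-07 and 4.7e-10 by edgeR). The endosomal exchanger gene Slc9a9 changed by -0.83 and -1.1 (adjusted p = 2.1e-04 and 1.9e-06). The nucleoside carrier gene Slc28a2 changed by -0.84 and -0.6 (adjusted p = 8.9e-07 and 5.9e-06), the arginine sensor gene Slc38a9 by -0.76 and -0.63 (adjusted p = 3.5e-05 and 4.9e-05) and Slc36a1 by -0.46 and -0.48 (adjusted p = 9.0e-04 and 1.4e-04). Slc46a3, of lysosomes, changed by -1.25 and -0.95 (adjusted p = 0.0028 and 0.0069), and the magnesium transporter gene Slc41a1 by -0.52 and -0.83 (adjusted p = 7.3e-06 and 6.0e-09). In the Golgi, Slc35b3 changed by -0.56 and -0.83 (adjusted p = 2.4e-04 and 8.8e-07).

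Members higher in reporter-positive cells were led by Slc17a6, at 1.27 (SE 0.28, adjusted p = 0.0018) with SGC0649 and 1.23 (SE 0.24, adjusted p = 5.0e-04) with SGC0946, and Slc4a11, at 1.25 (SE 0.1, adjusted p = 2.6e-08) and 1.26 (SE 0.08, adjusted p = 1.9e-09). The purine carrier gene Slc43a3 was higher by 0.89 and 1.07 (adjusted p = 4.9e-07 and 6.2e-09 by edgeR). Metal and heme transporters had 8 members higher and 2 lower with SGC0649, and 10 higher and 2 lower with SGC0946 (medians 0.18 and 0.06). Among their zinc importers Slc39a4 was higher by 1.02 and 1.06 (adjusted p = 1.5e-04 and 1.5e-05), Slc39a8 by 0.8 and 0.76 (adjusted p = 1.0e-05 and 2.4e-06), Slc39a6 by 0.78 and 0.72 (adjusted p = 4.7e-06 and 1.7e-06) and Slc39a14 by 0.68 and 0.59 (adjusted p = 5.9e-06 and 3.5e-06). Slc39a1 was not called in either, at -0.04 (95% interval -0.18 to 0.1) and -0.05 (-0.18 to 0.07).

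In the mitochondrial carrier list 9 of 35 members were higher and 5 lower with SGC0649, and 9 higher and 8 lower with SGC0946. The ADP/ATP exchanger genes were both higher, Slc25a4 by 0.66 and 0.71 (adjusted p = 3.0e-07 and 1.6e-08 by edgeR) and Slc25a5 by 0.46 and 0.49 (adjusted p = 3.0e-05 and 2.5e-06). Citrate carrier RNA (Slc25a1) was higher by 0.33 and 0.3 (adjusted p = 0.0067 and 0.005). ER and Golgi carriers had 9 higher members with either compound, against 3 lower with SGC0649 and 4 with SGC0946. These included the ER exchanger gene Slc35b1 at 0.57 and 0.61 (adjusted p = 4.8e-05 and 3.8e-06) and Slc33a1, which brings acetyl-CoA into the ER, at 0.5 and 0.73 (adjusted p = 0.0014 and 8.3e-06). The thiamine carrier gene Slc19a2 was higher by 0.9 and 0.73 (adjusted p = 0.0011 and 0.0018) and the phosphate importer gene Slc20a1 by 0.43 and 0.5 (adjusted p = 1.0e-04 and 3.7e-06). The taurine transporter gene Slc6a6 was higher by 0.52 with SGC0649 (adjusted p = 2.2e-04) and by 0.27 with SGC0946 (adjusted p = 0.0097). Its difference with SGC0946 was 0.2 (adjusted p = 0.052) without YFPneg SGC0946 number 92 and 0.22 (adjusted p = 0.056) without YFPpos SGC0946 number 91.

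**Figure D4:**
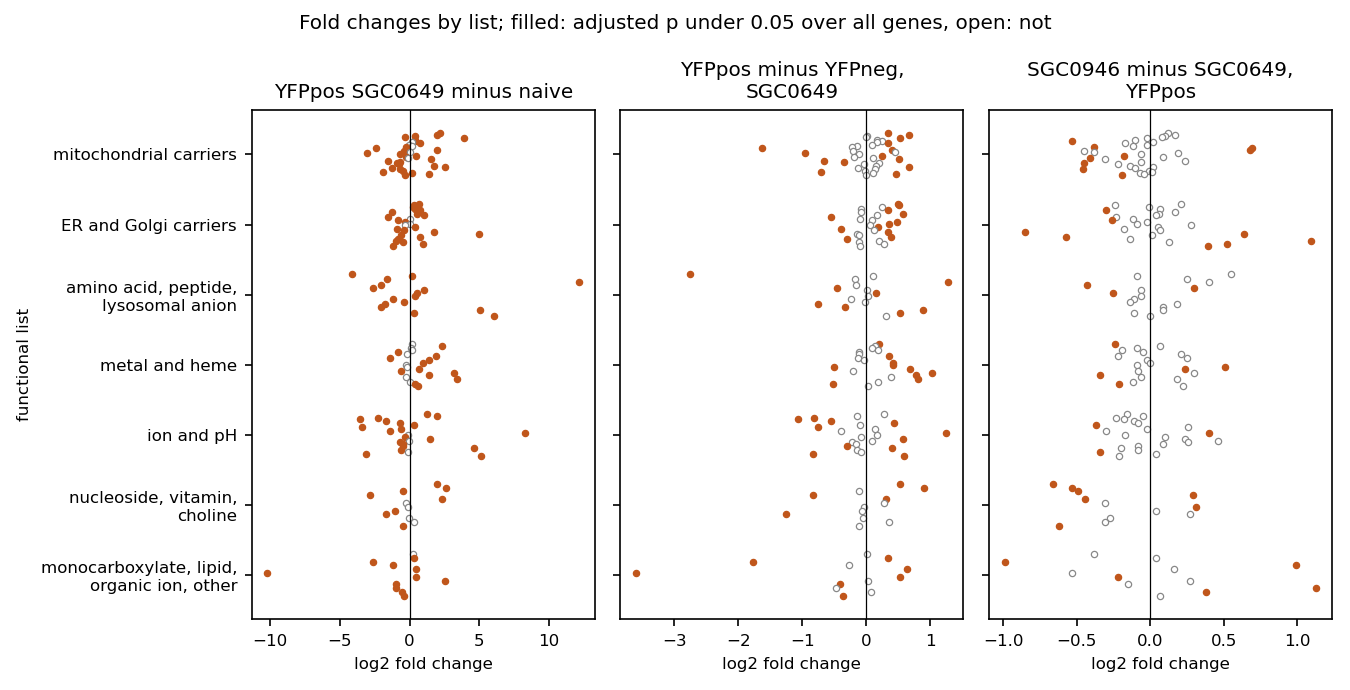
Log2 fold change of each member (1 point, x axis, with a scale of its own in each panel) by functional list (y axis) in 3 comparisons, filled where the adjusted p over all genes was under 0.05. Every list holds filled points on both sides of 0 in each panel, and the spread narrows from the naive comparison to the comparison of compounds.

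The third comparison set the DOT1L inhibitor against its inactive control compound, both at 1 µM for 4 days. In YFPpos cells 15 members were higher and 25 lower with SGC0946 (40 called), with a median of -0.06 against -0.04 over all genes. The background was 27.7% called, 12.1% higher and 15.7% lower, and 30.6% among genes with a mean of at least 5 CPM, near the members' 27.6%. With DESeq2 size factors in place of TMM, the split over all genes went from 1490 higher and 1934 lower to 1702 higher and 1388 lower, and that of the members to 15 higher and 21 lower. The members called were 26 without YFPpos SGC0649 number 62 and 25 without number 63. Only 2 members rose by at least 2-fold and none fell by as much.

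Members higher with the inhibitor in YFPpos cells included fatty acid and organic solute carriers. Slc27a1 (FATP1, fatty acid uptake) stood at 5.42, 4.45 and 2.64 CPM in YFPpos SGC0649 and 8.98, 11.1 and 7.31 CPM in YFPpos SGC0946 libraries (1.13, SE 0.22, adjusted p = 0.0014). Slc16a10 stood at 9.33, 9.66 and 9.08 CPM against 18.1, 19.8 and 17.7 CPM (0.99, SE 0.12, adjusted p = 2.1e-05). Neither gene's groups overlapped. Slc37a2, of the sugar phosphate exchanger family, stood at 5.16, 4.68 and 3.94 CPM against 10.1, 10.2 and 8.96 CPM (1.09, SE 0.26, adjusted p = 0.005), and its relative Slc37a4, which carries glucose-6-phosphate into the ER, was higher by 0.52 (SE 0.12, adjusted p = 0.0042). The ATP-Mg/phosphate carriers Slc25a23 and Slc25a24 were higher by 0.69 (SE 0.14, adjusted p = 0.0022) and 0.68 (SE 0.14, adjusted p = 0.0017). Slc4a11, Slc50a1 and Slc27a4 (FATP4) were higher by 0.4, 0.39 and 0.38 (adjusted p = 0.0016, 0.0025 and 0.0015 by edgeR).

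Vitamin and nucleoside carriers stood among those lower with the inhibitor, with 5 of 12 lower and 2 higher in YFPpos cells (median -0.31). The folate carrier gene Slc19a1 stood at 76.2, 86.6 and 107 CPM in YFPpos SGC0649 and 57.4, 53.7 and 59.8 CPM in YFPpos SGC0946 libraries, without overlap (-0.66, SE 0.11, adjusted p = 4.9e-04). Slc23a2, for vitamin C, changed by -0.49 (SE 0.08, adjusted p = 3.8e-04) and the nucleoside carrier gene Slc29a1 by -0.44 (SE 0.07, adjusted p = 4.5e-04). The urea transporter gene Slc14a1 stood at 4.3, 3.92 and 6.27 CPM against 2.22, 2.86 and 2.24 CPM (-0.99, SE 0.21, adjusted p = 0.0024). Slc35f2 stood at 27.6, 29.4 and 33.8 CPM against 14.8, 17.4 and 18 CPM (-0.85, SE 0.11, adjusted p = 4.8e-05). Mitoferrin 1 RNA (Slc25a37) changed by -0.45 (SE 0.08, adjusted p = 0.0011), vesicular ATP carrier RNA (Slc17a9) by -0.43 (SE 0.07, adjusted p = 6.5e-04), and RNA of the zinc importer Slc39a6 by -0.34 (SE 0.08, adjusted p = 0.0058). Slc25a4 did not pass the test, with a difference of 0.02 (95% interval -0.1 to 0.13), nor did Slc43a3 at 0.09 (-0.06 to 0.25) and Slc12a7 at -0.18 (-0.37 to 0).

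In YFPneg cells 8 members were higher and 10 lower with SGC0946 (18 called), with a median of -0.01 against 0.01. The background was 8.63% called, 4.99% higher and 3.64% lower, and 9.41% among genes with a mean of at least 5 CPM. The members' share was 12.4%. Counts of members called were 10 without YFPneg SGC0649 number 61, 3 without number 62 and 1 with only the 2 YFPneg groups fitted. The 1 member called in that fit was Slc35g1, at 54.4 and 51 CPM in YFPneg SGC0649 and 36.8, 37.1 and 28.8 CPM in YFPneg SGC0946 libraries (-0.62, SE 0.11, adjusted p = 0.0033). In YFPpos cells Slc35g1 stood at 65.5, 64.4 and 75.4 against 46.6, 43.3 and 48.2 CPM (-0.57, SE 0.09, adjusted p = 4.1e-04).

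The contrasts of compounds in the 2 sorts share no library. In both, 14 members were called, 7 higher and 7 lower and each in the same direction, which is 35% of those called in YFPpos and 77.8% of those called in YFPneg cells. Over all genes these shares were 20.5% and 66%. Pearson's r across the members was 0.74, and 0.5 across all genes. All genes again include those with a mean under 5 CPM, so these values are not set at like levels. In YFPneg cells Slc16a10 stood at 10.6 and 12.2 CPM with SGC0649 and 18.3, 16.8 and 17.1 CPM with SGC0946 (0.61, SE 0.13, adjusted p = 0.012), and the difference was 0.51 (adjusted p = 0.073) without YFPneg SGC0649 number 61. Slc27a1 stood at 6.25 and 5.34 against 11.5, 10.5 and 11.4 CPM (0.94, SE 0.25, adjusted p = 0.028), with 1.05 (adjusted p = 0.068) without number 61 and 0.83 (adjusted p = 0.16) without number 62. Both genes were higher with the inhibitor in every library of that group. Slc19a1 changed by -0.47 (SE 0.13, adjusted p = 0.031), with -0.42 (adjusted p = 0.13) without YFPneg SGC0649 number 61, -0.53 (adjusted p = 0.092) without number 62 and -0.37 (adjusted p = 0.06) without YFPneg SGC0946 number 93. Slc29a1 changed by -0.34 (SE 0.08, adjusted p = 0.021), with -0.28 (adjusted p = 0.15) without YFPneg SGC0649 number 62. Slc4a11 was higher by 0.39 (SE 0.1, adjusted p = 0.021), with 0.32 (adjusted p = 0.15) without that library.

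**Figure D5:**
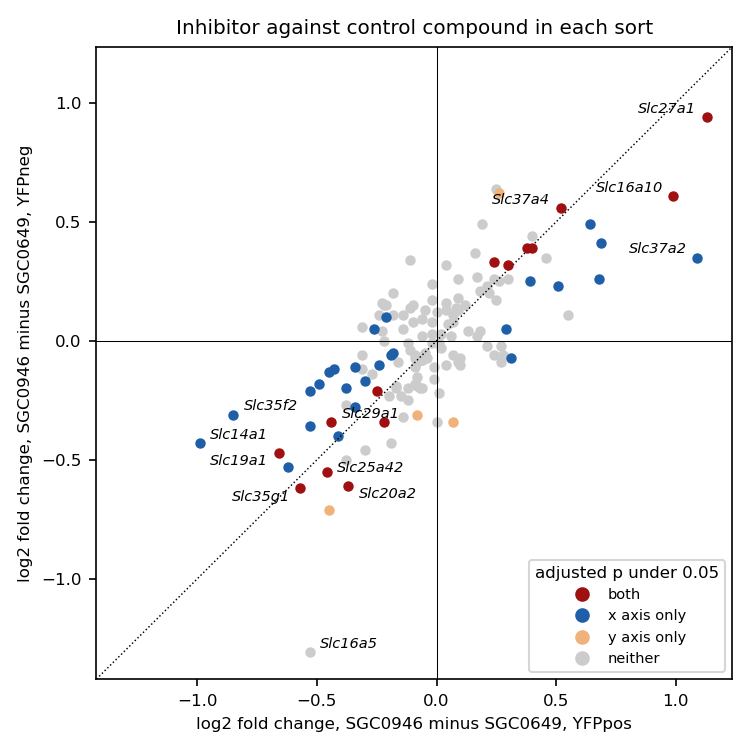
Log2 fold change of SGC0946 over SGC0649 in YFPpos cells (x axis) and in YFPneg cells (y axis), 1 point for each of the 145 members, coloured by which contrast passed an adjusted p of 0.05; the dotted line marks equal values. The 14 members called in both lie in the lower left and upper right corners, with Slc27a1 and Slc16a10 at the upper right, while Slc16a5, at under 2 CPM in all cultured libraries, passed in neither.

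Whether the effect of the compound differed between the sorts was tested as an interaction. None of the 145 members passed, on a background of 1.15% of all genes called by edgeR, 0.259% higher and 0.891% lower, and 1.43% among genes with a mean of at least 5 CPM. An unadjusted p under 0.05 was reached by 14 members and by 1706 of all genes. The 95% interval reached a median of 0.33 on the log2 scale to either side of a member's estimate, so smaller differences were mostly not detectable at this depth and number of libraries. The smallest adjusted p, 0.061, belonged to the zinc transporter gene Slc30a4. It stood at 127 and 122 CPM in YFPneg SGC0649, 103, 90.7 and 103 in YFPneg SGC0946, 130, 133 and 150 in YFPpos SGC0649 and 146, 148 and 140 CPM in YFPpos SGC0946 libraries. It was thus lower with the inhibitor in YFPneg libraries and overlapped between compounds in YFPpos libraries, with an interaction of 0.41 (95% interval 0.19 to 0.62). The DESeq2 Wald test called Slc30a4 (0.45, adjusted p = 0.0044), as did edgeR with DESeq2 size factors (0.45, adjusted p = 0.045), without the filter (0.42, adjusted p = 0.041), without YFPneg SGC0946 number 93 (0.44, adjusted p = 0.047) and without YFPpos SGC0649 number 63 (0.48, adjusted p = 0.029). Slc41a1 was called without YFPneg SGC0946 number 91 (-0.36, adjusted p = 0.046), and Slc31a1, a copper importer gene named after its values were seen, without YFPneg SGC0946 number 92 (-0.5, adjusted p = 0.039).

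Of the 17 Slc genes at the limit that were left out by name, 11 were higher and 4 lower in YFPpos SGC0649 than in naive cells, with a median of 1.41. In YFPpos against YFPneg SGC0649 cells 11 of these 17 were higher and 1 lower. The background for this list and the next was 42.6% of all genes higher and 37.3% lower in YFPpos SGC0649 than in naive cells. Between the SGC0649 sorts it was 23.9% higher and 21.3% lower in YFPpos cells. A list of 27 genes that work beside solute carriers (channels, pumps, chaperones and metal regulators) had 15 higher and 11 lower in YFPpos SGC0649 than in naive cells, and between the SGC0649 sorts 15 of them were higher in YFPpos and 4 in YFPneg cells. From these, 4 were named after their values were seen. Atp1b1, a subunit of the sodium pump whose gradient drives many carriers, stood at 212, 205 and 207 CPM in naive, 19.4 and 20.5 in YFPneg SGC0649 and 3.91, 3.87 and 5.19 CPM in YFPpos SGC0649 libraries (-5.58, SE 0.13, adjusted p = 9.9e-17 for YFPpos SGC0649 against naive). Stk39 encodes the kinase SPAK, which phosphorylates chloride cotransporters, and it rose from 31.4, 32.6 and 30.8 CPM in naive to 217, 237 and 250 CPM in YFPpos SGC0649 libraries (2.89, SE 0.07, adjusted p = 5.3e-16). Bsg, the chaperone of monocarboxylate carriers, was higher by 1.87 (SE 0.08, adjusted p = 4.4e-13), and Tfrc, the transferrin receptor that brings in iron, by 3.78 (SE 0.09, adjusted p = 2.8e-16).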

How the data were processed

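RNA-seq libraries of 14 samples in 5 groups were used. The authors deposited whole-number read counts per protein-coding gene, counted by reverse strand per the name of the deposited table, and not normalized. The submitters' processing notes name featureCounts, edgeR, limma and GRCm38. The sources used here state no versions, aligner or annotation release. No column was without a sample. The deposited counts of reads by assignment category gave the unmapped shares.

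Genes were filtered by group with filterByExpr and scaled by TMM, and 1 edgeR quasi-likelihood model (R 4.3.3, edgeR 4.0.16, limma 3.58.1) over all 14 libraries and 5 groups tested 7 comparisons. P-values were adjusted by Benjamini-Hochberg over 12343 genes, with a threshold of 0.05. Fold changes are on the log2 scale with a prior count of 0.125, SE is the log2 fold change over the root of F, and intervals are 95% model intervals. The biological coefficient of variation was 9.12%. The labels call the samples biological replicates without naming animals, so p-values measure the spread between these samples. Each pair of replicates differed beyond counting noise. CPM for the limit of membership are counts over the library total. All other CPM are TMM-scaled, and RPKM use exon lengths of GENCODE M21. A floor of 3 counts over a group set lower bounds. The fit was tested on simulated data. DESeq2 1.42.0, other scaling and filters, fits of fewer groups, other member limits, the sample number as a block and leaving out each library were tried.

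The members and lists were chosen with earlier results of these data known. Named genes were, per comparison, the 6 higher and 6 lower called members with the largest change and no overlap, and per list up to 3 called members with the smallest p. The 2 highest members per list by exon length, the 2 genes on either side of the limit, the 4 members with the smallest p over the cultured groups and the 4 with the widest ratio between groups were added. Of the genes this rule names, 1 is not reported here.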

Additional observations from a re-analysis of the deposited data

How the results depend on the processing

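Directions held in all 274 pairs of a named gene and a comparison that were checked, while 61 lost their call under some alternative, 58 of them on leaving out a library. In YFPpos cells the compounds gave 40 members (25 to 49 leaving out 1 library) and 3424 genes in all (1886 to 4565), with 2004 genes without YFPpos SGC0946 number 92. In YFPneg cells they gave 18 members (3 to 20, with 10 without YFPneg SGC0649 number 61) and 1065 genes (335 to 1520). Fitting only the groups compared left 1 member and 199 genes there, and the DESeq2 Wald test called 1600 genes. The interaction gave 0 members, against 1 with DESeq2 size factors, without the filter, by the DESeq2 Wald test and with the replicate block, and 0 to 1 leaving out a library. Over all genes it gave 142, against 297 by the Wald test, 56 with the 4 cultured groups alone and 61 to 241 leaving out a library. The cause was not tested. For YFPpos against YFPneg the members called ran from 51 to 74 with SGC0649 and from 61 to 82 with SGC0946 leaving out 1 library, and against naive from 113 to 125 in YFPpos and from 99 to 109 in YFPneg SGC0649 cells. Member limits of 2 and 10 CPM gave 157 and 132 members. Deviations from group means of same-numbered YFPneg and YFPpos libraries correlated at 0.15 and 0.04 with SGC0649 and 0.11, 0.08 and 0.04 with SGC0946. The numbers were not taken to pair them in the main model. With SGC0946 each YFPneg library correlated best with the YFPpos library of its own number. With SGC0649 YFPneg number 61 did so and number 62 did not. These 2 libraries deviate from their mean as mirror images, so their correlations are not separate evidence. The correlations cannot decide whether the numbers mark pairs. With the replicate block, on 3 residual degrees of freedom, YFPpos against YFPneg gave 48 members with SGC0649 and 71 with SGC0946, and the interaction called Slc30a4 (0.51, adjusted p = 0.04). Only 2 YFPneg SGC0649 libraries limit the precision of every contrast with that group.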
